A study of Mus musculus with 6 samples.

Results

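The 10 genes described here, Apoe, Abca1, Abcg1, Cd36, Lpl, Trem2, Fabp5, Gpnmb, Cd9 and Spp1, handle lipid or mark phagocytes that have taken up myelin. They were chosen by name from the 54232 genes in the files, by matching Ensembl identifiers to GENCODE M21 symbols, and all 10 passed the filter on low counts that 11254 genes passed. They were measured by RNA-seq in monocytes from the CNS of mice with experimental autoimmune encephalomyelitis (EAE), a model of multiple sclerosis. Each GFP+ recipient mouse was lethally irradiated and given bone marrow (BM) cells of both genotypes in equal numbers, Ifnar1-/- donors carrying the CD45.2 allele and WT donors CD45.1, so that monocytes with and without the type I interferon receptor chain IFNAR1 shared a host. All chimeric mice received 30000 IU of IFN-β daily, and at disease peak GFP- CD45+CD11b+Ly6ChiLy6G- cells were sorted by CD45 allele into 3 WT and 3 Ifnar1-/- libraries. No group without IFN-β was analysed here, the age of the mice is not given in the sources used here, and, although both groups were sorted from the same recipients, the sources used here do not say which libraries share a mouse, so p-values measure only the spread between these libraries. The comparison asks which transcripts differ between monocytes that can and cannot respond to IFN-β in the same animals. Because the donors also differed in the CD45 allele, effects of IFNAR1 and of other donor differences cannot be told apart. None of the 10 genes lies on chromosome 1, where Ptprc (CD45) is, or on chromosome 16, where Ifnar1 is. Donor differences elsewhere, or acting on genes at other places, were not tested.

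As background, a phagocyte that engulfs myelin takes in large amounts of cholesterol and phospholipid. Scavenger receptors such as CD36 and the lipid-sensing receptor TREM2 act at the cell surface, lysosomal enzymes release the lipid, FABP5 carries fatty acids through the cytosol, and the transporters ABCA1 and ABCG1 pass cholesterol to acceptors that carry apolipoprotein E. Nuclear receptors of the LXR and PPAR families sense sterols and fatty acids and switch on many of these genes. Gpnmb, Spp1, Cd9, Lpl and Fabp5 are known as genes of lipid-laden macrophages and of disease-associated microglia.

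Among the 10 genes, Gpnmb was the only gene that passed the test, and it was 3.29-fold higher in WT than in Ifnar1-/- monocytes. Fabp5 was 2.01-fold and Abcg1 1.46-fold higher in WT on average, and every WT library lay above every Ifnar1-/- library for these 3 genes, but Fabp5 and Abcg1 did not reach an adjusted p of 0.05. The other 7 genes had overlapping groups. A gene was called when edgeR's quasi-likelihood test, with Benjamini-Hochberg adjustment over all 11254 genes, put its adjusted p at 0.05 or less and its fold was 1.5 or more. By this rule 1 of the 10 genes was called in either direction, against 2.13% of all genes tested. It was among the 1.67% of genes called higher in WT, and 0 of the 10 were among the 0.462% called lower. Groups did not overlap, with WT higher, for 3 of the 10 genes and 11.1% of all genes, and with WT lower for 0 of the 10 genes and 12.2% of all genes. Their median log2 fold change, WT over Ifnar1-/-, was 0.040, against -0.014 for all genes. The 10 genes were chosen with earlier results of these data known, so these shares are a description and not a test. Here and below, lower RNA per cell and fewer cells of an expressing type cannot be told apart in bulk libraries.

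**Figure D1:**
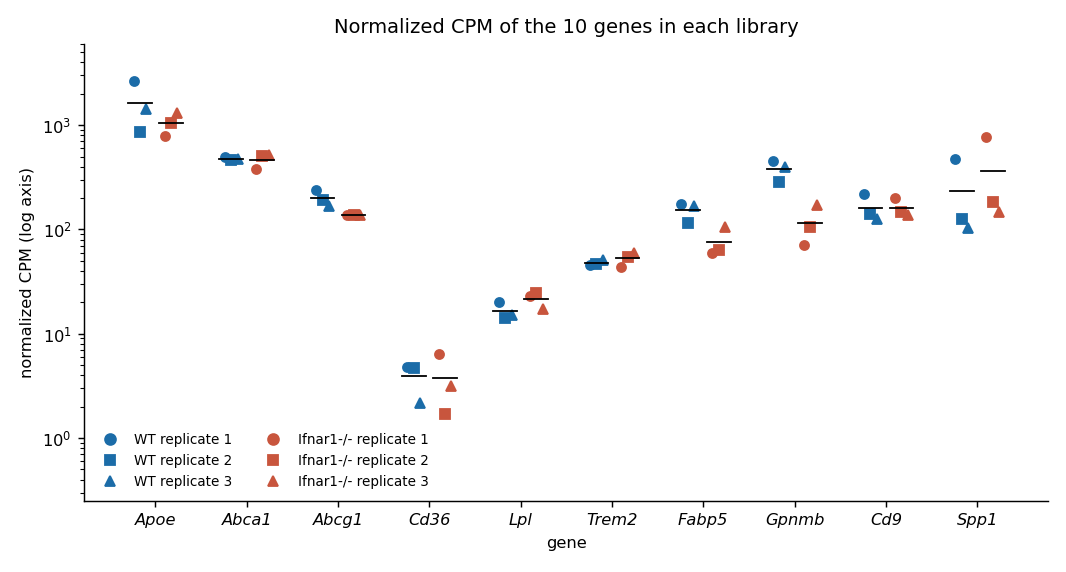
Normalized CPM (counts scaled by library size, log axis) of each of the 10 genes, with 1 point a library, blue for WT and red for Ifnar1-/-, and the black line at the group mean (n = 3). The WT points lie above all Ifnar1-/- points for Abcg1, Fabp5 and Gpnmb, and replicate 1 of both groups stands high for Spp1.

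Totals ran from 4531764 to 7321361 counts per library, and the floor of 3 counts was 0.427 to 0.638 normalized CPM, depending on the library (floors cover counting error only). Across the series 240 genes were called, 188 higher and 52 lower in WT (136 higher and 14 lower on TPM rescaled to protein-coding genes). Ifnar1 (chr16:91485238-91507441, GRCm38) was at 153, 126 and 111 normalized CPM in WT and 109.9, 102 and 109 in Ifnar1-/- libraries, a log2 fold change of 0.28 with a standard error (SE) of 0.15 and an edgeR adjusted p of 0.36. Counts over the whole gene can include reads outside a deleted part, so this does not check the labels. In the deposited TPM, a level scaled to transcript length and library, the 7SL RNA gene Rn7s2 took 27.8% of WT replicate 1 and 7.36% to 11.2% of the other libraries. Libraries are named below by group and replicate number, and values of a gene are normalized CPM unless another unit is given.

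The sort was for monocytes, and the monocyte marker list (Ly6c2, Ccr2, Itgam, Ptprc, Csf1r, Lyz2, Fcgr1) summed to between 8102 and 9738 in WT and between 8586 and 9793 in Ifnar1-/- libraries. Ly6c2, which encodes an antigen used for the sort, was at 726, 788 and 639.7 in WT against 177, 300.3 and 337 in Ifnar1-/- libraries, and it was called (log2 fold change 1.40, SE 0.23, edgeR adjusted p = 0.00957). Microglial markers, which matter here because microglia also express Apoe, Trem2, Lpl and Spp1, summed to between 82.9 and 113 in WT and between 98.3 and 126 in Ifnar1-/- libraries, with P2ry13 the highest, and 5 of the 9 passed the filter. Of the defining markers, Sall1 was at most 1.10 and Slc2a5 at most 0.368 in any library, while P2ry12 lay between 15.2 and 31.01. Tmem119 lay between 2.13 and 11.4, Olfml3 between 6.27 and 12.7 and Cx3cr1 between 10.6 and 36.3. Macrophage markers summed to between 536 and 611 in WT and between 466 and 745 in Ifnar1-/- libraries, with Lyve1 at 0 in all 6.

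T cell markers stood higher in WT, with sums of 46.2, 19.8 and 46.2 against 19.7, 7.96 and 10.3, so that the groups did not overlap. The 6 T cell markers of 8 that passed the filter all had a positive fold change, 0 were called, none of the 8 was at 0 in all libraries, and Cd2 was the highest. Oligodendrocyte and myelin markers, led by Mbp, summed to between 74.4 and 103 in WT and between 62.9 and 67.5 in Ifnar1-/- libraries, and Mog was at 0 in all 6. Mbp itself overlapped between the groups (39.5 to 52.8 over all libraries), while Cnp was higher in every WT library, at 43.4, 29.5 and 24.5 against 17.4, 18.6 and 17.7. The astrocyte list, led by Slc1a2, summed to between 21.04 and 27.8 in WT and between 10.8 and 20.4 in Ifnar1-/- libraries, although Gja1 in it was lower in every WT library. B cell markers summed to at most 1.71 in any library, with Pax5 at 0 and 3 of 4 genes at or under the floor of 3 counts in every library, so that Cd79b made up nearly all of the sum. The summed levels of these 4 lists moved with the groups, as Gpnmb, Fabp5 and Abcg1 did, and their part in those results was not tested. Neutrophil markers, led by Ngp, did not follow the groups but stood at 1349 and 1200.5 in replicate 3 of WT and Ifnar1-/-, against 258 to 507 in the other 4 libraries. The dendritic cell list, led by Flt3, summed to between 20.2 and 27.8 in WT and between 12.9 and 24.7 in Ifnar1-/- libraries.

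**Figure D2:**
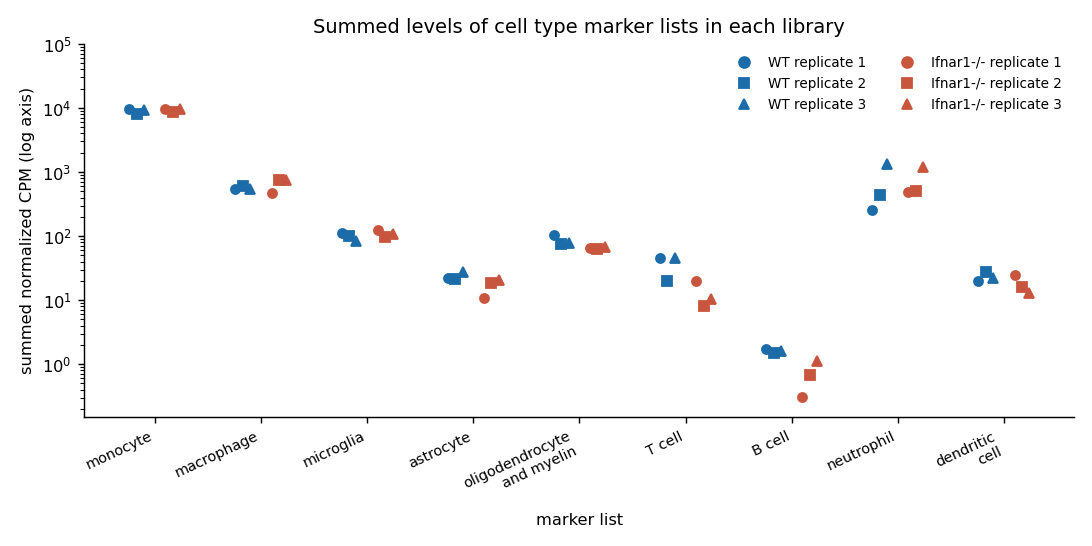
Summed normalized CPM (log axis) of 9 cell type marker lists, 1 point a library, blue for WT and red for Ifnar1-/-. Monocyte markers lie between 8102 and 9793, the T cell, B cell, astrocyte and myelin sums lie higher in all WT libraries, and neutrophil markers are highest in replicate 3 of both groups.

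Levels of different genes were compared by TPM, which is scaled to transcript length, and within a library. Apoe had the highest TPM of the 10 genes in every library, from 771 to 2027 TPM, above at least 98.95% of the genes tested. Lpl (4.78 to 8.76 TPM) was the ninth and Cd36 (1.09 to 3.93 TPM) the last in every library, so both sat in the lower part of the expressed range. Between them came Cd9, Spp1, Fabp5 and Gpnmb, then Abcg1, Trem2 and Abca1, by mean percentile. The middle 7 changed places from library to library, and the percentile ranges of neighbours in this order overlapped. Gpnmb moved most in this order, from between the percentiles 91.9 and 94.4 of all genes in WT libraries to between 77.3 and 86.3 in Ifnar1-/- libraries.

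Gpnmb (chr6:49036546-49070929, plus strand, GRCm38) encodes a transmembrane glycoprotein of lysosomes and phagosomes that rises in macrophages loaded with lipid. Its level was 455, 288 and 396 in the 3 WT libraries and 71.0, 106 and 171 in the 3 Ifnar1-/- libraries. The lowest WT library was thus above the highest Ifnar1-/- library. The group means were 379.7 ± 84.8 and 116 ± 50.6 (SD, n = 3 each), from between 465 and 3200 counts per library. The log2 fold change was 1.72 (SE 0.29) with an edgeR adjusted p of 0.0128, and the two-sided exact permutation p was 0.1, the smallest that 3 against 3 libraries allow. Without Ifnar1-/- replicate 2 the log2 fold change was 1.67 and the edgeR adjusted p 0.0646, so the call was lost. Leaving out any other single library kept the call, with log2 fold changes from 1.48 to 2.12. The deposited abundance-weighted transcript length of Gpnmb was 2305 bases in Ifnar1-/- replicate 1 and between 3033 and 3204 bases in the other 5 libraries. A fit with offsets for GC content and length gave a log2 fold change of 1.61. Those offsets use each gene's mean length over the libraries, so they do not take up this difference between libraries.

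Fabp5 (chr3:10012548-10016607, plus strand) encodes a cytosolic carrier of fatty acids. WT libraries held 174, 116 and 168, and Ifnar1-/- libraries 59.1, 63.9 and 105. All WT values were above all Ifnar1-/- values, though WT replicate 2 and Ifnar1-/- replicate 3 lay close together. Means were 153 ± 31.9 and 76.0 ± 25.2 (SD, n = 3 each). On the log2 scale the fold change was 1.01 (SE 0.24), the edgeR adjusted p was 0.0626 and the exact permutation p was 0.1. Fabp5 was called in 8 of 20 alternative settings, among them DESeq2 (adjusted p = 0.00184) and the fits without Ifnar1-/- replicate 3 (edgeR adjusted p = 0.0219) or without WT replicate 2 (0.0456), and the log2 fold change stayed between 0.88 and 1.33 in all 20. Reads may be shared with 3 processed pseudogenes at least 95% identical to it over 150 or more bases, namely Gm13998, Gm14328 and Gm6166, to which the authors' counting gave at most 3.4 counts in any library.

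**Figure D3:**
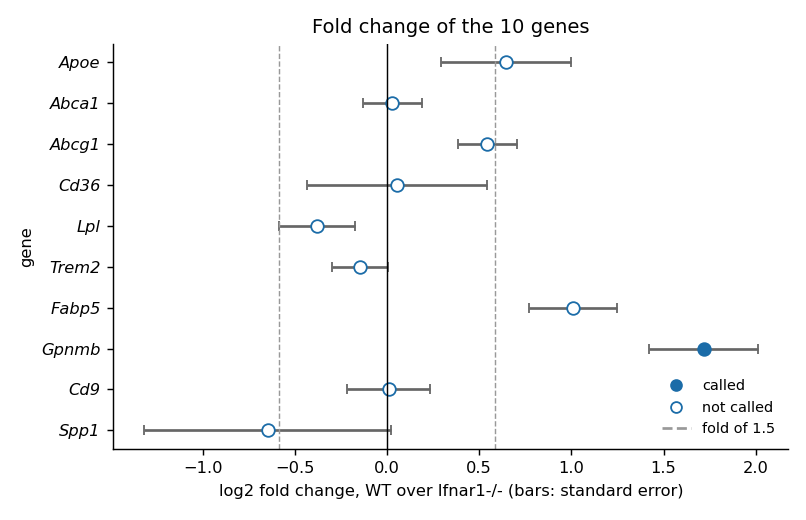
Log2 fold change of the 10 genes, WT over Ifnar1-/-, with the SE from edgeR as bars, a filled point for a called gene and dashed lines at a fold of 1.5. Gpnmb at 1.72 is filled, Fabp5 at 1.01 lies beyond the fold line but is not called, and Trem2, Abca1, Cd36 and Cd9 lie within 0.15 of 0.

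The list of other fatty acid carriers and oxidation genes held 12 tested genes, 0 of which were called. Its median log2 fold change was -0.21, against 0.040 for the 10 genes. A negative fold change was found for 8 of the 12, and for 5825 of all 11254 genes tested. The other 2 genes of the list, the carriers Fabp3 and Fabp4, did not pass the filter and were at most 1.47 in any library. Of those with the smallest p, Etfa, a subunit of the flavoprotein that takes electrons from fatty acid oxidation, had a log2 fold change of -0.34 (SE 0.14, edgeR adjusted p = 0.236). Acsl3, which activates fatty acids with coenzyme A, had -0.77 (SE 0.34, edgeR adjusted p = 0.271), and -0.44 without Ifnar1-/- replicate 1. Groups did not overlap for 2 genes with WT higher (Cpt1a and Acadl) and for 2 with WT lower (Acsl4 and Etfa). Over all genes these shares were 11.1% and 12.2%. Fabp5 had a positive fold change where most of this list had a negative one, and no member of the list passed the test.

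Apoe (chr7:19696109-19699188, minus strand) encodes the apolipoprotein that accepts exported cholesterol. It was at 2635, 863 and 1427 in WT and at 780.3, 1057 and 1309 in Ifnar1-/- libraries. WT replicate 1 was the highest of all, and the other 2 WT libraries lay just above and within the Ifnar1-/- range. Its log2 fold change was 0.65 (SE 0.35, edgeR adjusted p = 0.367) and the exact permutation p 0.4. Without WT replicate 1 it was 0.13 (edgeR adjusted p = 0.899).

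Abca1 (chr4:53030787-53159895, minus strand), the transporter that loads cholesterol onto lipid-poor apolipoproteins, had the smallest spread of the 10 genes among WT libraries, with a coefficient of variation of 3.13%. Its values were 494, 467 and 469 in WT and 381, 509 and 513 in Ifnar1-/- libraries. Ifnar1-/- replicate 1 was the lowest library and the other 2 Ifnar1-/- libraries were the highest, so the groups overlapped. WT exceeded Ifnar1-/- by 0.028 on the log2 scale (SE 0.16, edgeR adjusted p = 0.953, exact permutation p = 1).

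Abcg1 (chr17:31057675-31117988, plus strand) encodes the transporter that passes cholesterol to mature high-density lipoprotein. WT libraries held 239, 193 and 167 and Ifnar1-/- libraries 138, 137 and 136. The 3 Ifnar1-/- values were nearly equal and all lay under the lowest WT value. The log2 fold change was 0.54 (SE 0.16, edgeR adjusted p = 0.12) and the exact permutation p 0.1. It was called in 0 of 20 alternative settings. Its adjusted p was 0.0413 with DESeq2 and 0.0487 with no filter on low counts, with the fold under 1.5 in both, while offsets for GC content and length lowered the log2 fold change to 0.32, and leaving out single libraries moved it between 0.40, without WT replicate 1, and 0.68.

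The nuclear receptors and their other lipid targets were the list nearest to these export genes. All 14 were tested, 0 were called, and the median log2 fold change was 0.11 with 10 positive and 4 negative. Groups did not overlap for Nr1h3 (the receptor LXRα), Srebf1 (a regulator of fatty acid synthesis) and Pltp (a phospholipid transfer protein), which were higher in every WT library, and for Scd2 (a fatty acid desaturase), which was lower in every WT library. Srebf1 was at 71.0, 63.8 and 59.4 in WT against 42.3, 51.7 and 48.0, a log2 fold change of 0.45 (SE 0.14, edgeR adjusted p = 0.139). Scd2 was at 106, 108 and 96.3 in WT against 139, 179 and 129.6, a log2 fold change of -0.53 (SE 0.16, edgeR adjusted p = 0.126). Srebf1 and Scd2, both known targets of LXR, had fold changes of opposite sign, and neither was called. Nr1h3 and Pltp had log2 fold changes of 0.75 and 0.70, also not called (edgeR adjusted p = 0.214 and 0.232). With GC and length offsets Scd2 was called (-0.67, edgeR adjusted p = 0.0425) and Srebf1 fell to 0.11.

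Lipid storage and cholesterol export from lysosomes had the highest median of the 7 lists, 0.30 on the log2 scale. Of its 13 tested genes 0 were called, 11 had a positive fold change, and 6 had every WT library above every Ifnar1-/- library. Over all 11254 genes tested, 5429 had a positive fold change. Groups did not overlap for 11.1% of all genes with WT higher and for 12.2% with WT lower. Nceh1, which hydrolyses cholesteryl ester, was at 88.1, 91.4 and 96.5 in WT against 52.4, 51.2 and 71.4, a log2 fold change of 0.66 (SE 0.16, edgeR adjusted p = 0.07005), called in 3 of 20 alternative settings. Npc2, the lysosomal protein that hands cholesterol to NPC1, was at 675, 624 and 556 against 417, 401 and 437, a log2 fold change of 0.56 (SE 0.15, edgeR adjusted p = 0.0874). The other 4 genes without overlap were Lipa, Pnpla2, Npc1 and Cyp27a1, which break down stored lipid or move and oxidise cholesterol. No gene of this list had groups that did not overlap with WT lower.

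Cd36 (chr5:17781690-17888801, minus strand), a receptor for oxidised lipoprotein and fatty acids, was the least abundant of the 10 genes. It had 10 to 42 counts per library, or 4.84, 4.68 and 2.17 in WT and 6.41, 1.69 and 3.13 in Ifnar1-/- libraries. The highest and the lowest library were both Ifnar1-/-. Its log2 fold change was 0.052 with an SE of 0.49 (edgeR adjusted p = 0.973). With so wide an SE, differences larger than the SE itself could also go uncalled, and the values do not show that the groups are equal.

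Lpl (chr8:68880491-68907448, plus strand) encodes lipoprotein lipase, which releases fatty acids from triglyceride-rich lipoproteins. It was at 20.1, 14.2 and 15.2 in WT and 23.1, 24.6 and 17.1 in Ifnar1-/- libraries. Only WT replicate 1 overlapped the Ifnar1-/- range. Its log2 fold change was -0.38 (SE 0.21, edgeR adjusted p = 0.367, exact permutation p = 0.2), and it kept its sign in all 20 alternative settings. Reads may be shared with Trim5, which is 95.1% identical to Lpl over 184 bases. Trim5 was given 26.6 to 57.4 counts per library, against 67 to 151 for Lpl.

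Trem2 (chr17:48346401-48354147, plus strand) encodes the lipid and lipoprotein receptor that signals through DAP12. Its values were 45.4, 46.8 and 50.5 in WT and 44.0, 54.2 and 59.8 in Ifnar1-/- libraries. Ifnar1-/- replicate 1 was the lowest and the other 2 Ifnar1-/- libraries the highest, as for Abca1. On the log2 scale the fold change was -0.15 (SE 0.15, edgeR adjusted p = 0.655, exact permutation p = 0.4).

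Among the scavenger and lipoprotein receptors 1 of 10 tested genes was called, the median log2 fold change was 0.22, and Marco was at 0 in every library. The called gene was Axl, a receptor tyrosine kinase that binds apoptotic cells and myelin debris through GAS6 and is a known interferon target. Axl was at 437, 288 and 333 in WT and 105, 168 and 148 in Ifnar1-/- libraries, a log2 fold change of 1.33 (SE 0.21, edgeR adjusted p = 0.00882), and it was called in all 20 alternative settings. Cd68, a lysosomal scavenger receptor-like protein, came next by p, with a log2 fold change of 0.55 (SE 0.23, edgeR adjusted p = 0.24), and of 0.26 without WT replicate 1. Msr1, the class A scavenger receptor, was the 1 gene of the list with every WT library below every Ifnar1-/- library, at 235, 234 and 194 against 326, 269.8 and 259 (log2 fold change -0.37, edgeR adjusted p = 0.251).

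The list for TREM2 signalling and shedding held 9 tested genes with 0 called and a median log2 fold change of 0.25. Pik3cd, a catalytic subunit of phosphoinositide 3-kinase, was at 214, 119 and 152 in WT against 99.0, 99.98 and 103 (log2 fold change 0.68, SE 0.20, edgeR adjusted p = 0.122), and it was called in 3 of 20 alternative settings, namely DESeq2, no filter on low counts and without WT replicate 2. GC and length offsets lowered it to 0.31, and leaving out WT replicate 1 to 0.43. Syk, the kinase recruited by DAP12, had a log2 fold change of 0.46 (SE 0.18, edgeR adjusted p = 0.228), and of 0.23 with the same offsets. Tyrobp (DAP12 itself) and Adam10, a protease that sheds TREM2, were lower in every WT library, at log2 fold changes of -0.20 and -0.31 with edgeR adjusted p of 0.474 and 0.347.

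Spp1 (chr5:104435118-104441050, plus strand) encodes osteopontin, a secreted matrix protein and cytokine. It was at 472, 125 and 104 in WT and 769.8, 185 and 146 in Ifnar1-/- libraries. Replicate 1 of each group stood far above the group's other libraries, and the spread within groups was larger than the difference between them. Its log2 fold change was -0.65 (SE 0.67, edgeR adjusted p = 0.657, exact permutation p = 0.5). It became 0.52 without Ifnar1-/- replicate 1 and -1.68 without WT replicate 1, so leaving out 1 of these libraries moved the value widely. Gm42793, a transcript on the same strand within the gene, is identical to it over 181 bases and took a mean of 41.9 counts against 1892 for Spp1.

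Cd9 (chr6:125460266-125494791, minus strand) encodes a tetraspanin, a membrane protein that organises adhesion and receptor complexes. Its values were 219, 140.1 and 126 in WT and 199, 146 and 138 in Ifnar1-/- libraries. Replicate 1 was again the highest in each group, and the groups overlapped throughout. Gm26728, annotated across it on the opposite strand, took a mean of 5 counts against 958 for Cd9. Reads may also be shared with Dnajc14 (95.5% identical over 154 bases) and Topbp1 (95.9% over 172 bases). The authors' counting gave these 294 to 560 and 218 to 293 counts per library. The log2 fold change of Cd9 was 0.0079 (SE 0.23, edgeR adjusted p = 0.991, exact permutation p = 1).

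The osteopontin receptors and other tetraspanins gave 0 called genes of 12 tested and a median log2 fold change of -0.0017, with 6 positive and 6 negative. Cd81, a tetraspanin close to CD9, was at 11.2, 11.1 and 10.3 in WT against 17.3, 15.3 and 23.0, a log2 fold change of -0.76 (SE 0.20, edgeR adjusted p = 0.0948). Cd37, a tetraspanin of leukocytes, had a log2 fold change of 0.29 (SE 0.15, edgeR adjusted p = 0.336). Cd44, the main osteopontin receptor besides integrins, had -0.041 (SE 0.20).

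Other genes of lipid-laden and disease-associated phagocytes were all tested, 14 of 14, with 0 called and a median log2 fold change of 0.23. Csf1, the macrophage growth factor, was at 37.7, 16.4 and 16.8 in WT against 11.9, 8.98 and 4.97, a log2 fold change of 1.46 (SE 0.38, edgeR adjusted p = 0.0863). It was called in 5 of 20 alternative settings, DESeq2 among them (adjusted p = 0.00963), and was 0.94 without WT replicate 1 and 0.86 on log2 TPM. Ctsb, the lysosomal protease cathepsin B, was at 1885, 1216 and 1325 against 960.5, 949 and 1038, a log2 fold change of 0.59 (SE 0.19, edgeR adjusted p = 0.155). It was called with DESeq2 (adjusted p = 0.0372) and was 0.38 without WT replicate 1. Ctsz and Lgals3, a cathepsin and galectin-3, were the other 2 genes with every WT library above every Ifnar1-/- library. Cst7 and Itgax, which mark disease-associated microglia together with Trem2, Apoe and Lpl, had log2 fold changes of -0.37 (SE 0.38) and 0.13 (SE 0.27).

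**Figure D4:**
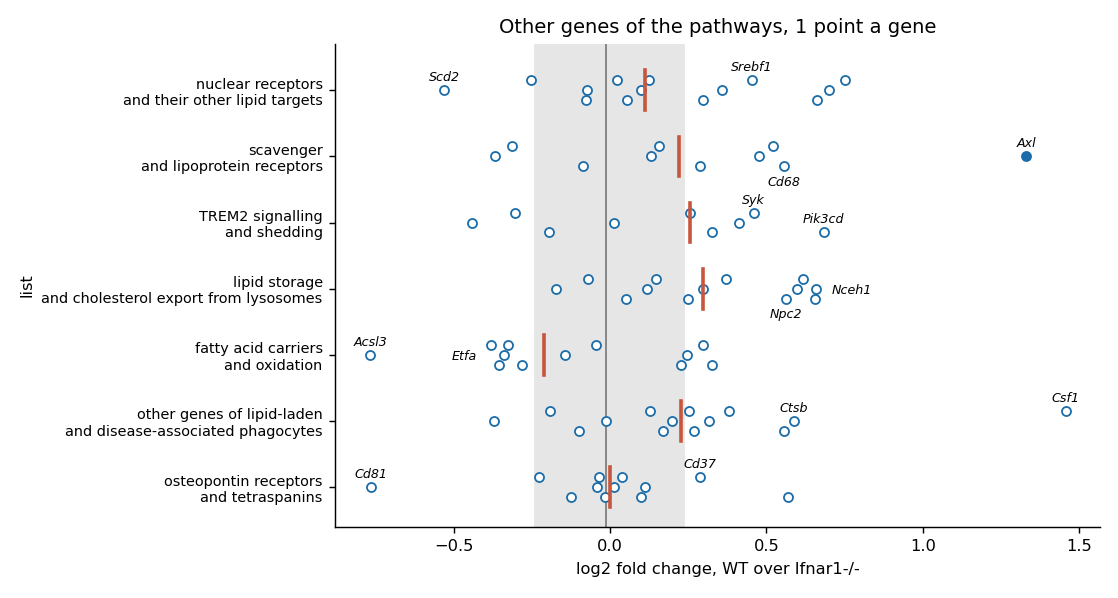
Log2 fold change, WT over Ifnar1-/-, of the tested genes of 7 lists, 1 point a gene, filled where called, with the red bar at the list's median, the grey line at the median of all genes (-0.014) and the grey band from their lower to upper quartile (-0.24 to 0.24). Axl is the 1 filled point, and the list medians run from -0.21 for fatty acid carriers and oxidation to 0.30 for lipid storage and cholesterol export from lysosomes.

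Over the 7 lists together, 84 of 90 genes were tested, 1 was called higher and 0 lower in WT, and the median log2 fold change was 0.13. Groups did not overlap for 18 of the 84 with WT higher and for 7 with WT lower, set against 11.1% and 12.2% of all genes. At an unadjusted p under 0.05, 21 of the 84 were counted, as were 3 of the 10 genes and 17.8% of all genes tested (2006 of 11254).

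The 10 genes did not move as 1 block. Over the 6 libraries, the Pearson correlation of log2(normalized CPM + 0.5) was 0.98 between Gpnmb and Fabp5, 0.94 between Cd9 and Spp1, 0.82 between Gpnmb and Abcg1 and -0.72 between Trem2 and Cd36, the 3 highest and the lowest of the 45 pairs. These values describe 6 points that share library and depth, and for Gpnmb, Fabp5 and Abcg1 also the difference between groups. Within the groups, Gpnmb, Fabp5, Apoe and Abca1 ranked the libraries alike, with WT replicates 1, 3, 2 and Ifnar1-/- replicates 3, 2, 1 from high to low. Of all 11254 genes, 292 (2.59%) had this order. Abcg1, Cd9 and Spp1 shared another order, with replicate 1 the highest and replicate 3 the lowest in both groups, though the 3 Ifnar1-/- values of Abcg1 were almost equal. The share of all genes with this second order was not counted, so it cannot be read as particular to these genes.

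**Figure D5:**
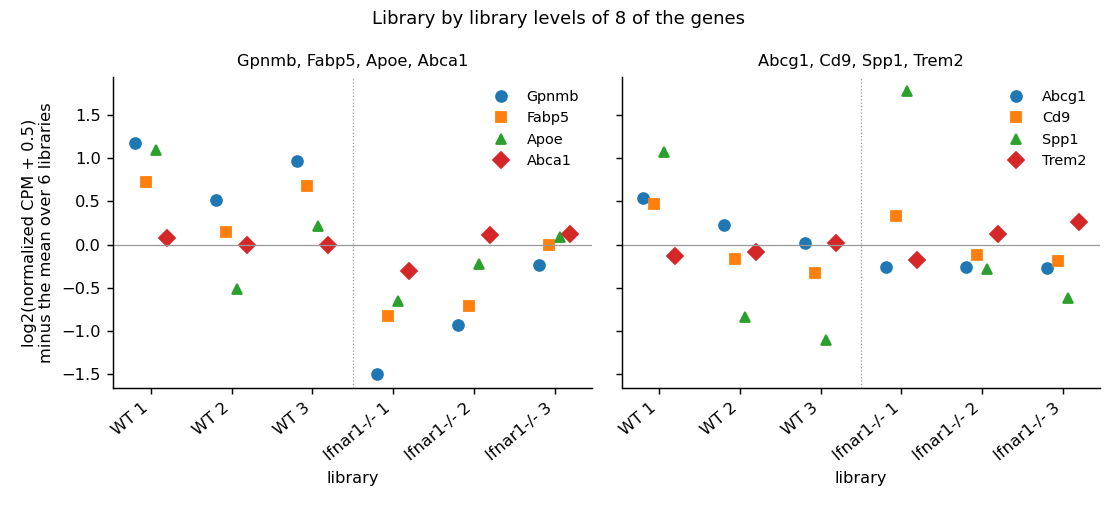
Level of 8 of the genes in each library, as log2(normalized CPM + 0.5) minus the gene's mean over the 6 libraries, with WT left and Ifnar1-/- right of the dotted line. Gpnmb and Fabp5 lie above 0 in all WT libraries and at or below 0 in all Ifnar1-/- libraries, while Spp1 is highest in replicate 1 of each group.

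Of the other tested genes, the 3 whose pattern was most like that of Gpnmb over the 6 libraries were Tcirg1 (r = 0.998), Trim14 (r = 0.988) and Sap30 (r = 0.984), and 74 of 11253 genes had r above 0.95. Tcirg1, a subunit of the vacuolar proton pump, was at 365, 318 and 346 in WT against 237, 258 and 288 in Ifnar1-/- libraries, with an edgeR adjusted p of 0.193. Trim14 was at 30.2, 20.8 and 24.5 against 8.70, 10.7 and 12.9, and Sap30 at 107, 93.9 and 104 against 48.4, 54.6 and 61.8, and both were called (edgeR adjusted p = 0.0134 and 0.00908).

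The promoters were searched because the groups differ in the receptor for IFN-β and because several of the 10 genes are known targets of nuclear receptors. RefSeq windows of 300 bases (250 before and 50 after the start, GRCm38.p6) were at hand for 7 of the genes, with 10 windows in all, and Lpl, Abcg1 and Fabp5 had none. The core of the interferon-stimulated response element, GAAANNGAA on either strand, stood in 1 window each of Apoe, Cd9 and Spp1 and in 8.56% of all 32851 windows. The nuclear receptor half-site AGGTCA on either strand stood in 1 window each of Cd36 and Trem2 and in 16.3% of all windows. The windows of Gpnmb and Abca1 held neither. The 250 bases before the start are shown for Gpnmb, the called gene, and for the windows with GAAANNGAA, 5′ to 3′ on the gene's strand, with the match in capitals. They lie at chr6:49036268-49036517 (plus strand) for Gpnmb, chr7:19699189-19699438 (minus) for Apoe, chr6:125494761-125495010 (minus) for Cd9 and chr5:104434861-104435110 (plus) for Spp1, where the match is on the opposite strand.
Gpnmb: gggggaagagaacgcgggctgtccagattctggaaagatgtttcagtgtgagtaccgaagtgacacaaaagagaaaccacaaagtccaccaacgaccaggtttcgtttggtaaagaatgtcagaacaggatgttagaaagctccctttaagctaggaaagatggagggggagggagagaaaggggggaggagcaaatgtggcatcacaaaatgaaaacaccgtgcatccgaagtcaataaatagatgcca
Apoe: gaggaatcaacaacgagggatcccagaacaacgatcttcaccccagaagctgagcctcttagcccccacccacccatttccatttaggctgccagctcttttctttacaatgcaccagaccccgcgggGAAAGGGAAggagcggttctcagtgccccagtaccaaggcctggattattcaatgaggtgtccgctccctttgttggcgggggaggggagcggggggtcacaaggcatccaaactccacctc
Cd9: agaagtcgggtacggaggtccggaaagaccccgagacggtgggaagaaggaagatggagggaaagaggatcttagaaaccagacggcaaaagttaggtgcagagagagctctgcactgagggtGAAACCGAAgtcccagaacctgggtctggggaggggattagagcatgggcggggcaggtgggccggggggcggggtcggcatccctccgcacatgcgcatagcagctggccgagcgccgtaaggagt
Spp1: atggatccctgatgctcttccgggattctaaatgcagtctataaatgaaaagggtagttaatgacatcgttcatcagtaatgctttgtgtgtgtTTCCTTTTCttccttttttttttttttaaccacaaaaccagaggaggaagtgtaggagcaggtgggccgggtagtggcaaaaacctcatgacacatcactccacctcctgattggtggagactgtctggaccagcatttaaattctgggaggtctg
The match begins 122 bases before the start in Apoe, 127 in Cd9 and 156 in Spp1. None of these 3 genes was called, and the called gene, Gpnmb, has no match in its window. The search covered only these short patterns in these windows. Whether a match, or its absence, bears on the level of any gene was not tested.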

How the data were processed

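RNA-seq libraries of 3 WT and 3 Ifnar1-/- monocyte samples, grouped by their labels, were analysed. The authors sequenced paired-end reads of 75 bases, and the submitters' processing notes name STAR 2.6.0c, RSEM 1.2.31 and GRCm38. The labels and the study's methods name different library kits. The deposited expected counts are estimates per gene, not normalized, and were rounded to whole numbers. The deposited TPM and FPKM are scaled by the authors to transcript length and library. TPM served for levels between genes, with FPKM as a check, and for the alternative fits on log2 TPM. The deposited abundance-weighted transcript lengths are in bases.

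Counts were tested with edgeR 4.0.16 in R 4.3.3 (TMM, filterByExpr with minimum count 10, quasi-likelihood, Benjamini-Hochberg). Normalized CPM are counts over the TMM-adjusted library size. Every fold change is from the counts, except in the alternative fits on log2 TPM and on rescaled TPM. Exact permutation tests were two-sided on log2(normalized CPM + 0.5). GENCODE M21 named 54165 of 54232 identifiers. Alternatives used DESeq2 1.42.0 and limma 3.58.1, and similar transcripts were sought with blastn 2.17.0.

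The 10 genes and all lists were chosen with earlier results of these data known. Named besides the 10 were Ifnar1, called genes of each list (made up to 2 by smallest p), the 3 genes most like Gpnmb, and markers at 0 or highest. Other genes named were chosen after their values were seen. Some markers of the microglia and B cell lists are not reported here and are left out of their sums.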

Additional observations from a re-analysis of the deposited data

How the results depend on the processing

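The number of the 10 genes called was 1 and became 2 (Gpnmb and Fabp5) with DESeq2, with the replicate block in edgeR or in DESeq2, and with GC and length offsets without or with the replicate block, 4 (Gpnmb, Fabp5, Apoe and, lower in WT, Spp1) with no filter on low counts, and 0 to 2 when single libraries were left out. The count of list genes called was 1 (Axl) and became 5 with DESeq2 (Axl, Csf1, Ctsb, Nceh1 and Pik3cd), 7 with no filter (Axl, Csf1, Nceh1, Pik3cd, Pnpla2, Ppard and, lower in WT, Cd81), 2 with the replicate block in either tool (Axl and Csf1), 2 with GC and length offsets (Axl and, lower in WT, Scd2), 4 with these offsets and the replicate block (Axl, Csf1, Nceh1 and Scd2), and 1 to 2 when single libraries were left out. All 240 genes called became 419 with DESeq2, 872 with no filter, 126 on log2 TPM, 150 on TPM rescaled to protein-coding genes (chosen after the data were seen), and 119 to 245 when single libraries were left out (119 without Ifnar1-/- replicate 1, 120 without Ifnar1-/- replicate 3, 148 without WT replicate 3). With no filter, the log2 fold changes of Apoe and Spp1 were 0.64 and -0.65, close to those of the main fit. Their SEs there were 0.20 and 0.18, against 0.35 and 0.67 in the main fit. The cause of these moves was not tested. Of 500 fold changes under alternatives, 456 kept direction and call, 25 gained a call, 1 lost it (Gpnmb) and 18 reversed. The alternative that called genes by adjusted p alone reused the main fit, so its fold changes could not differ from it. Abca1 reversed to -0.065 with GC and length offsets, -0.056 with these and the replicate block and -0.0031 on log2 TPM, and spanned -0.084 to 0.12 with libraries left out. Cd9 reversed to -0.018 with limma-voom, -0.016 under edgeR's replicate block, -0.00057 under DESeq2's block and -0.0045 on log2 TPM, and spanned -0.27 to 0.21 with libraries left out. Cd36 spanned -0.28 to 0.72 and Spp1 -1.68 to 0.52 with libraries left out, and Ifnar1 reversed to -0.29 on log2 TPM and -0.26 on rescaled TPM. None of these reversed values was called. Same-numbered libraries deviated together only weakly (correlations 0.0906, 0.0278 and 0.276). WT replicates 2 and 3 correlated best with the Ifnar1-/- library of the same number. WT replicate 1 correlated about equally with Ifnar1-/- replicates 1 (0.0906) and 2 (0.0920). The numbers were not taken as pairs in the main fit, and these values do not settle whether they are. Spp1 was -0.59 (SE 0.15, edgeR adjusted p = 0.0929) with the replicate block. The exact permutation p did not change with pseudocounts of 0.1 or 2. Cd36, with 10 to 42 counts per library, had the lowest counts of the 10 genes.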

Other observations

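Outside the lipid genes, 3 of the monocyte and macrophage markers had groups that did not overlap besides Ly6c2, while the other 8 that were tested overlapped between the groups. Over all genes tested, groups did not overlap for 11.1% with WT higher and for 12.2% with WT lower. These counts are a description and not a test. Ccr2, the chemokine receptor that brings monocytes out of the marrow, was at 648, 694 and 587 normalized CPM in WT against 1269, 794 and 905 in Ifnar1-/- libraries, lower in 3 of 3 WT libraries (log2 fold change -0.62, SE 0.20, edgeR adjusted p = 0.143). Mrc1, the mannose receptor of macrophages, was at 34.9, 26.4 and 21.7 in WT against 51.3, 48.8 and 43.6 (log2 fold change -0.79, SE 0.18, edgeR adjusted p = 0.0610). Fcgr1, a high-affinity IgG receptor, was at 413, 278 and 271 in WT against 203, 194 and 192, above all Ifnar1-/- libraries (log2 fold change 0.71, SE 0.18, edgeR adjusted p = 0.0839). None of these 3 genes passed the test, and all 3 were named after their values were seen.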
